A study of Homo sapiens with 24 samples.

Results

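FKBP5 and 6 other genes that act in, or respond to, glucocorticoid signalling were followed through RNA-seq of A549 cells, a human lung adenocarcinoma cell line. They were found as the rows of all 24 libraries whose Ensembl identifiers map to the symbols FKBP5, FKBP4, NR3C1, TSC22D3, PER1, KLF9 and SGK1, that is 7 of 58721 identifiers. FKBP5 had been chosen by its log2 fold change between siFOXM1 and siControl libraries, in an earlier analysis of these data, and the other 6 were chosen around it for their place in the pathway. Values from the FOXM1 siRNA comparison are therefore given for the 7 genes as a description, without a test.

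The study asked which genes depend on the transcription factors MYBL2 and FOXM1. Cells transfected with 25 nM siRNA against MYBL2 (siMYBL2, n = 4) or against FOXM1 (siFOXM1, n = 4) shared 1 set of cells given scrambled siRNA (siControl, n = 4). In a separate experiment, cells received the MYBL2 and FOXM1 siRNAs together (siBoth, n = 3) and were compared with their own scrambled siRNA controls (siControl_Both, n = 3). In the last experiment cells were given 20 µM FDI-6, a compound that blocks DNA binding by FOXM1, for 24 h (FDI6, n = 3), and were compared with controls labelled wild type (control_FDI6, n = 3), whose vehicle the labels do not give and the study names as DMSO. No steroid is named among the treatments, the time between transfection and harvest is not given in the sources used here, and all groups are the same cell line.

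Cortisol and synthetic glucocorticoids bind the glucocorticoid receptor, which waits in the cytoplasm in a complex with the chaperone HSP90 and its cochaperones. FKBP5 encodes FKBP51, a cochaperone that lowers the receptor's affinity for hormone, and FKBP4 encodes FKBP52, which competes for the same place and favours transport to the nucleus. The bound receptor activates genes that include FKBP5 itself, TSC22D3, PER1, KLF9 and SGK1, often through distant or intronic elements, and represses many cytokine genes. A549 cells carry the receptor and are a common model of this response in lung epithelium.

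In hg38 coordinates with GENCODE V44 annotation, FKBP5 (ENSG00000096060.14) lies on the minus strand at chr6:35573585-35728583, with 11 exons in its canonical transcript. RefSeq lists 2 start sites for it, and 300 bases around the start of the canonical transcript (GRCh38.p14, minus strand, chr6:35688866-35689165) are shown because the study's factors act at promoters. The capitals mark a CCAAT box, the only match there to the 6 motifs searched:
FKBP5 promoter: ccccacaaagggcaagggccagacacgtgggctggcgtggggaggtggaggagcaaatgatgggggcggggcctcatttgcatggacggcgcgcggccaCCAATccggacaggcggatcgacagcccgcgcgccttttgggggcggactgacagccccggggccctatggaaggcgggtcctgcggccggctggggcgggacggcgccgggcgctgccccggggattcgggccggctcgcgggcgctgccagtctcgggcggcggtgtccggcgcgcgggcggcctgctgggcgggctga
The motifs were searched on both strands. They were the glucocorticoid receptor hexamer AGAACA (in 14.8% of 35116 promoters of this length), the full receptor element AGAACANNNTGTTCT (in 1 promoter), the forkhead core GTAAACA (3.42%), the cell cycle homology region TTTGAA (15.2%), the MYB core CAACTG (11.4%) and CCAAT (34.6%). The window at the other FKBP5 start (chr6:35728534-35728833) held 1 TTTGAA and 1 AGAACA. Of the 7 genes, 6 matched a RefSeq promoter, FKBP4 being the exception, and none of their 18 windows held the full receptor element. These are letter matches and were not tested for binding.

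Early in the 3′ UTR of FKBP5, at base 81 of 2248, stands the word GTGTTTA. It is shown, in capitals, because an earlier analysis of these data found the word more often in genes that fell in siFOXM1 libraries. KLF9 was the only other of the 7 genes to hold it in its canonical 3′ UTR, at base 2691 of 3175. The sites lie on the minus strand at chr6:35575740-35575768 and chr9:70385071-70385099:
FKBP5 site: aggacagaacaGTGTTTAatgtaaagttt
KLF9 site: gactattgcagGTGTTTAaaaagaaagaa

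Each library held between 16487394 and 30140550 read pairs counted on genes, and the FDI6 libraries were the shallowest (16487394 to 17741253). Pairs that did not align made up 9.09 to 10.93% of siBoth and 7.68 to 7.92% of siControl_Both libraries, against at most 3.03% elsewhere. In siMYBL2, siFOXM1 and siControl, replicate 4 stood apart: it differed from its group by 28.3 to 62.8 chi-square units per gene, against 11.2 to 21.6 among replicates 1 to 3. The epithelial genes KRT8 and KRT18 were high in every library (at least 1609 and 1019 counts per 1000000 read pairs on genes, CPM), whereas the T cell gene CD3E was at 0 and the leukocyte gene PTPRC at or below 0.231 CPM. The other 4 epithelial markers were lower, down to 1.66 CPM for EPCAM, 2.36 for CLDN4, 9.31 for CDH1 and 37.95 for KRT19. Among markers of other cells the endothelial gene PECAM1 reached 2.80 CPM and the collagen gene COL1A1 lay between 4.87 and 57.9 CPM. MYBL2 was at 4.10% of its control in siMYBL2 and at 4.82% in siBoth, and FOXM1 was at 9.54% in siFOXM1 and 9.49% in siBoth, with no overlap between groups. FOXM1 also fell in siMYBL2, to 59.4% of control. Genes on the opposite strand cover 15.9% of the FOXM1 exon bases.

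FKBP5 was lower wherever the FOXM1 siRNA was used. Its levels in the siControl libraries were 61.5, 56.2, 62.0 and 67.1 CPM, and in the siFOXM1 libraries 28.8, 27.3, 26.1 and 28.0 CPM. The groups did not overlap, and the siFOXM1 mean of 27.5 ± 1.15 CPM (SD, n = 4) was 44.6% of the control mean of 61.7 ± 4.47 CPM (SD, n = 4). The fitted log2 fold change was −1.16, and this is the value for which the gene had been chosen. Over all genes in that comparison, 94 of 15892 (0.591%) were called lower and 12 (0.0755%) higher, a call being an edgeR Benjamini-Hochberg adjusted p under 0.05 with a fold change over 1.5. In bulk RNA a lower level in each cell and fewer cells with the RNA cannot be told apart.

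The siBoth libraries had no part in that choice, and FKBP5 fell in them too. The siControl_Both libraries measured 46.5, 40.0 and 43.0 CPM and the siBoth libraries 20.7, 25.6 and 27.0 CPM. Every siBoth library lay below every control, at 56.6% of the control mean (24.4 ± 3.32 against 43.2 ± 3.26 CPM, SD, n = 3 each). In the fit it changed by −0.79 on the log2 scale (SE 0.12, edgeR adjusted p = 0.00597), and it stayed past the threshold without any 1 of the 6 libraries. Among all genes in this comparison 3.64% were called lower and 2.8% higher.

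With MYBL2 siRNA alone, the FKBP5 levels of 64.7, 60.7, 60.9 and 81.9 CPM overlapped the siControl range. The log2 fold change of 0.14 (SE 0.11, edgeR adjusted p = 0.403) did not pass the test, and replicate 4 was the highest library. Without replicate 4 in either group it was 0.06 (SE 0.0683, edgeR adjusted p = 0.597), and without that siMYBL2 library alone it was 0.03. These controls are the ones used for siFOXM1. The FKBP5 effect of siBoth was lower than that of siMYBL2 by a log2 difference of −0.94 (SE 0.169, edgeR adjusted p = 0.0459). In this fit 0.176% of all genes passed in the lower direction. The adjusted p was above the threshold in 11 of 14 fits that left out a library, with differences between −1.02 and −0.82. In the fit with replicate number as a block the adjusted p was 0.000191. The double and single knockdowns were separate experiments, so treatment and experiment cannot be told apart in such a difference.

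In the FDI6 libraries FKBP5 did not pass the test. The control_FDI6 libraries measured 45.6, 48.6 and 48.3 CPM and the FDI6 libraries 45.5, 43.7 and 39.0 CPM. The groups did not overlap, although the closest libraries differed by little, and the log2 fold change was −0.13 (SE 0.0806, edgeR adjusted p = 0.226). The FDI6 effect was above the siBoth effect by 0.66 on the log2 scale (SE 0.148, edgeR adjusted p = 0.00412). In that test 18.2% of genes passed in the higher direction. Under upper-quartile scaling the median difference over all genes was −0.16 in place of −0.04. Compound and siRNA were given in separate experiments, so treatment and experiment cannot be told apart in such differences.

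**Figure D1:**
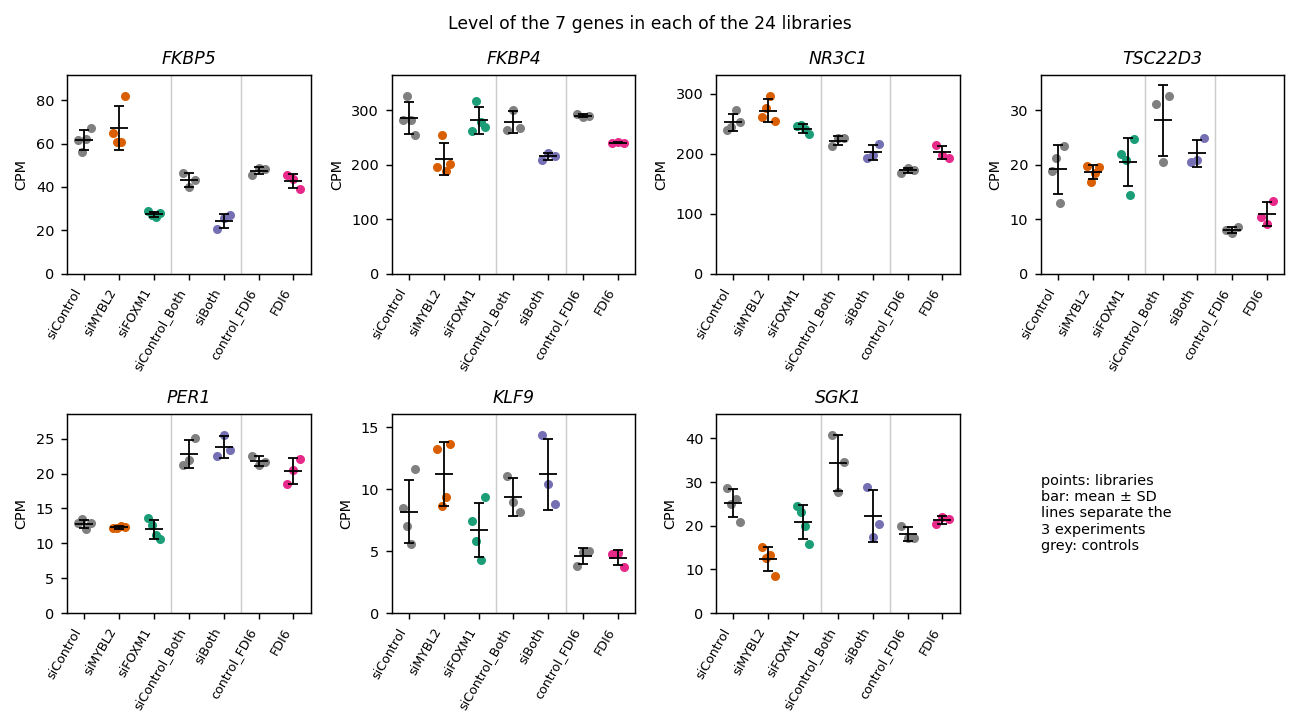
CPM on 1 scale (linear axis from 0) of the 7 genes in each of the 24 libraries, with group mean and SD bars and the controls in grey. FKBP5 is lowest in siFOXM1 (27.5 CPM) and siBoth (24.4 CPM), and SGK1 is lowest in siMYBL2 (12.4 CPM).

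FKBP4, the cochaperone that opposes FKBP51, was slightly lower in the siMYBL2, siBoth and FDI6 libraries. It maps to chr12:2794970-2805423 on the plus strand, and opposite-strand genes, among them ITFG2-AS1, cover 11.4% of its exon bases. Whether counting used strand is not stated, so their reads cannot be told apart. The control_FDI6 libraries measured 292.3, 288.0 and 289.3 CPM and the FDI6 libraries 240.4, 241.6 and 239.8 CPM. Both groups were tight and did not overlap, with a log2 fold change of −0.25 (SE 0.0555, edgeR adjusted p = 0.00476). In the double knockdown the siControl_Both libraries were at 263.9, 300.8 and 268.1 CPM and the siBoth libraries at 208.4, 222.0 and 216.1 CPM, again apart. That change of −0.34 (SE 0.0846, edgeR adjusted p = 0.0371) did not pass when any 1 library was left out (adjusted p up to 0.124). It also did not pass under upper-quartile scaling (−0.26, edgeR adjusted p = 0.0726).

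The siMYBL2 libraries held 196.0, 254.1, 189.0 and 201.8 CPM of FKBP4, against 281.3, 326.1, 281.5 and 253.9 CPM in siControl. Replicate 2 was the highest in both groups, and the groups overlapped only between siMYBL2 replicate 2 and siControl replicate 4. Each siMYBL2 library was below the siControl library of the same number, and the log2 fold change was −0.42 (SE 0.106, edgeR adjusted p = 0.0247). It passed in 2 of the 8 fits that left out a library. After siFOXM1 the mean was 281.1 ± 24.1 CPM (SD, n = 4), 98.4% of control.

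NR3C1, the glucocorticoid receptor gene (chr5:143277931-143435512, minus strand, 9 exons), was higher after FDI-6. Its control_FDI6 levels were 167.5, 176.0 and 173.4 CPM and its FDI6 levels 214.9, 198.3 and 193.4 CPM, without overlap. The log2 fold change was 0.25 (SE 0.0621, edgeR adjusted p = 0.00751), and without control_FDI6 replicate 1 the adjusted p was 0.0516. In the siRNA groups NR3C1 was at 107.8% of control in siMYBL2, 95.9% in siFOXM1 and 91.4% in siBoth, all with overlapping libraries. The siMYBL2 change of 0.13 (SE 0.069, edgeR adjusted p = 0.227) had an adjusted p of 0.0125 with the replicate block, each siMYBL2 library being above the same-numbered control. The siBoth change was −0.10 (SE 0.0808, edgeR adjusted p = 0.434). The FDI6 effect exceeded the siBoth effect by 0.35 (SE 0.101, edgeR adjusted p = 0.017), or by 0.23 with an adjusted p of 0.0871 under upper-quartile scaling.

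Of the 4 receptor targets other than FKBP5, SGK1, a kinase that regulates sodium channels and cell survival, was called in siMYBL2. SGK1 (chr6:134169248-134318112, minus strand, 14 exons) measured 28.6, 25.0, 26.1 and 20.9 CPM in siControl and 15.1, 12.7, 13.3 and 8.52 CPM in siMYBL2. The groups did not overlap and the siMYBL2 mean was 49.4% of control. The log2 fold change of −0.998 (SE 0.168, edgeR adjusted p = 0.00446) passed in each of the 8 fits without 1 library, from −1.11 to −0.86. Without replicate 4 in both groups it was −0.95 (edgeR adjusted p = 0.00103).

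In siBoth the SGK1 levels were 28.8, 17.4 and 20.3 CPM against 40.7, 27.8 and 34.7 CPM in siControl_Both. Each siBoth library was below its same-numbered control, but siBoth replicate 1 lay above siControl_Both replicate 2. The log2 fold change of −0.61 (SE 0.202) did not pass in the unblocked edgeR fit (adjusted p = 0.0877). It passed with the replicate block (−0.62, edgeR adjusted p = 6.28e-05), by DESeq2 (adjusted p = 0.0242) and without siBoth replicate 1 (−0.85, edgeR adjusted p = 0.0351). After siFOXM1 the libraries held 24.5, 23.2, 20.0 and 15.8 CPM, each below its same-numbered control, at 83.0% of control with overlap.

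FDI6 libraries held 20.4, 22.1 and 21.5 CPM of SGK1 against 19.9, 17.3 and 17.2 CPM in control_FDI6. They lay above all controls, with a log2 fold change of 0.26 (SE 0.0997, edgeR adjusted p = 0.0586). Without FDI6 replicate 1 that adjusted p was 0.0148. The difference from the siBoth effect was 0.85 (SE 0.241, edgeR adjusted p = 0.0148), whereas the siBoth and siMYBL2 effects differed by 0.39 (SE 0.283, edgeR adjusted p = 0.816; 0.0494 with the replicate block).

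TSC22D3, which encodes the anti-inflammatory protein GILZ, rose after FDI-6 from a low level. The gene lies at chrX:107713221-107777342 on the minus strand. Its levels were 8.003, 7.55 and 8.51 CPM in control_FDI6 and 10.5, 9.19 and 13.4 CPM in FDI6, with FDI6 replicate 3 the highest. FDI6 thus exceeded its control by 0.49 on the log2 scale (SE 0.156, edgeR adjusted p = 0.0275). It did not pass in 4 of 6 fits without 1 library, being 0.31 (edgeR adjusted p = 0.121) without FDI6 replicate 3.

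In siBoth, TSC22D3 was at 20.5, 20.8 and 24.9 CPM against 31.2, 20.6 and 32.6 CPM. siControl_Both replicate 2 was as low as the siBoth libraries, and the change of −0.32 (SE 0.178, edgeR adjusted p = 0.266) had an adjusted p of 0.0404 with the replicate block. Its FDI6 effect exceeded its siBoth effect by 0.80 (SE 0.253, edgeR adjusted p = 0.0264), a difference that did not pass in 7 of 12 fits without 1 library or under upper-quartile scaling (0.69, edgeR adjusted p = 0.0522). siMYBL2 and siFOXM1 libraries stood at 97.4% and 106.9% of siControl, and the siMYBL2 change was −0.02 (SE 0.168, edgeR adjusted p = 0.963).

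KLF9, a Krüppel-like transcription factor (chr9:70384604-70414657, minus strand), was among the lowest of the genes, with 69 to 101 counts per library in the FDI-6 experiment. The siMYBL2 libraries measured 13.3, 8.68, 9.41 and 13.7 CPM and the siControl libraries 8.53, 7.07, 5.59 and 11.6 CPM. Each siMYBL2 library was above its same-numbered control although the groups overlapped. The log2 fold change of 0.48 (SE 0.244, edgeR adjusted p = 0.207) passed with the replicate block (0.49, edgeR adjusted p = 0.00141). All 4 siFOXM1 libraries (7.41, 5.86, 4.28 and 9.39 CPM) were below their same-numbered controls, at 82.1% of control with overlapping groups. The part of the GTGTTTA word in these KLF9 values was not tested. In siBoth KLF9 was at 119.0% of control (log2 fold change 0.28, SE 0.207, edgeR adjusted p = 0.403) and in FDI6 at 97.2% (−0.02, SE 0.181, edgeR adjusted p = 0.934).

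PER1, a repressor of the circadian clock (chr17:8140472-8156506, minus strand, 23 exons), passed no test. Its log2 fold changes were −0.04 in siMYBL2 (SE 0.0824, edgeR adjusted p = 0.802), 0.09 in siBoth (SE 0.109, edgeR adjusted p = 0.627) and −0.07 in FDI6 (SE 0.1, edgeR adjusted p = 0.605). All treated groups overlapped their controls, and siFOXM1 stood at 93.9% of control.

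**Figure D2:**
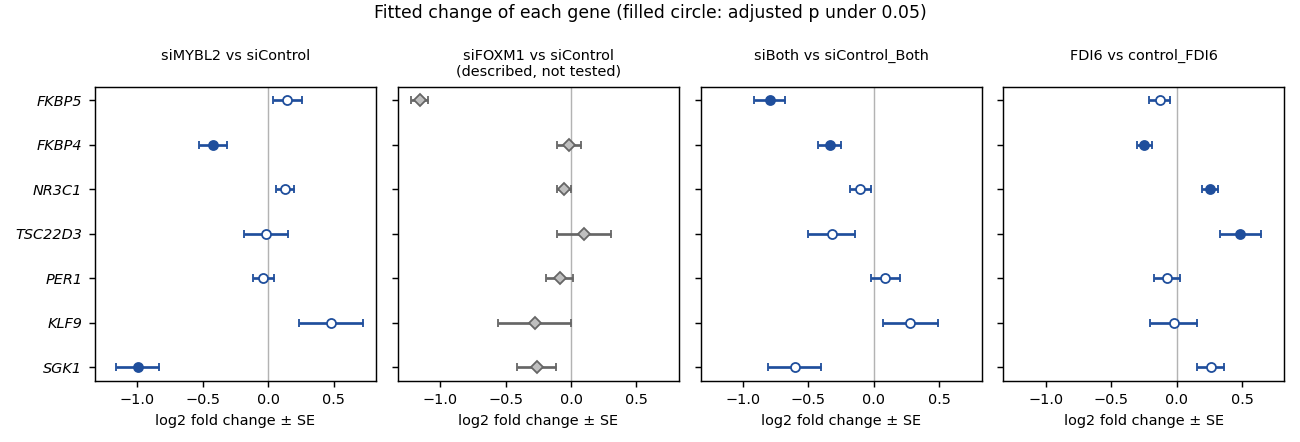
Log2 fold change of each gene against its own control, with SE bars; filled circles mark an edgeR adjusted p under 0.05 and the siFOXM1 panel is described only. FKBP5 stands far left for siFOXM1 (−1.16) and siBoth (−0.79), and SGK1 for siMYBL2 (−0.998).

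All 7 genes passed the filter on low counts in the 4 comparisons. In siMYBL2, FKBP4 and SGK1 passed the test, both lower, where 9.53% of all genes passed as lower and 8.53% as higher. With the fold threshold, SGK1 alone was called, against 3.52% of genes called lower and 4.38% higher. In siBoth, FKBP5 and FKBP4 passed as lower, against 7.77% of genes, and FKBP5 was called. These siRNA results and shares are from the fit without the replicate block. With that block SGK1 and TSC22D3 also passed as lower in siBoth, and NR3C1 and KLF9 as higher in siMYBL2. The share of all genes passing at any fold was not counted with the block. In FDI6, FKBP4 passed as lower and NR3C1 and TSC22D3 as higher, where 17.9% and 21% of all genes passed in these directions, and 0 of the 7 reached the fold threshold by edgeR or by DESeq2, with 4 at an unadjusted p under 0.05.

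Per kilobase of exon, FKBP4 was the most abundant of the genes in every control group (53.8 to 56.1 CPM per kb), followed by NR3C1 (18.8 to 27.5). The other 5 lay between 0.882 and 5.80 CPM per kb. The length used was that of all annotated GENCODE V44 exons of a gene merged, such as 5163 bases for FKBP4 and 10628 for FKBP5. It is not the length of the transcripts expressed, and the order depends on it. In siControl the order went on as FKBP5, TSC22D3, SGK1, PER1 and KLF9. There SGK1 overlapped TSC22D3, and KLF9 overlapped PER1. In siControl_Both, TSC22D3 came before FKBP5, and the libraries of TSC22D3, FKBP5, SGK1 and PER1 overlapped from each gene to the next. In control_FDI6 no neighbours overlapped, and TSC22D3 stood below PER1 and SGK1. PER1 ranged from 12.0 to 13.5 CPM in siControl, against 21.3 to 25.0 in siControl_Both and 21.2 to 22.5 in control_FDI6. TSC22D3 ranged from 13.0 to 23.4, 20.6 to 32.6 and 7.55 to 8.51 CPM in the same groups. Control condition and experiment cannot be told apart in these differences.

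The wider pathway was read through 9 lists of genes around the receptor. Taken once each, 119 genes of these lists were tested in siMYBL2, with 7 called lower and 1 higher, where 3.52% of all genes were called lower and 4.38% higher. In siBoth 8 of 123 were called lower and 5 higher. In FDI6 some of the list genes called higher were near 0 in control_FDI6, so no count over the lists is given as a result. Over all genes siBoth called 3.64% lower and 2.8% higher, and FDI6 called 5.77% lower and 8% higher. Over all genes siFOXM1 called 0.591% lower and 0.0755% higher. In siFOXM1 edgeR called 0 of 116 list genes, near that share, 10 had an unadjusted p under 0.05, and DESeq2 called 2. For siBoth the split over all genes was 576 lower and 443 higher, and under upper-quartile scaling 417 lower and 610 higher.

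Of the genes of the receptor's HSP90 complex, HSPA1B was the only one called by edgeR in the 4 comparisons. Of 16 tested, 6 passed as lower in siMYBL2, with a median log2 fold change of −0.24 (all genes 0.01), but none reached the fold threshold by edgeR (7 had an unadjusted p under 0.05 and DESeq2 called 1). Over all genes 9.53% passed as lower in siMYBL2, and 17.9% passed as lower and 21% as higher in FDI6. In FDI6, 6 passed as lower and 5 as higher, and the stress-inducible HSP70 gene HSPA1B was called, from 85.6 ± 1.96 to 133.8 ± 14.0 CPM (log2 fold change 0.67, SE 0.085, edgeR adjusted p = 0.000116, n = 3 each). In siBoth edgeR passed 0 of 16 (5 at an unadjusted p under 0.05, 4 past the adjusted threshold by DESeq2), with a median of −0.15. Of the other FKBP genes, FKBP2, an isomerase of the endoplasmic reticulum, was called lower in FDI6, at 33.0 ± 12.1 against 59.8 ± 1.98 CPM (−0.83, SE 0.201, edgeR adjusted p = 0.00697). The other steroid receptors and cortisol enzymes gave 0 edgeR calls in the 4 comparisons (at most 2 of 6 at an unadjusted p under 0.05, and 0 calls by DESeq2).

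Among the 15 coregulators of the receptor tested, 1 was called lower in siBoth and 2 higher in FDI6, where 3.64% and 8% of all genes were called in these directions. NRIP1, a corepressor of nuclear receptors, fell in siBoth from 154.0 ± 11.3 to 93.6 ± 9.36 CPM (−0.69, SE 0.1, edgeR adjusted p = 0.00497). It rose in FDI6 from 68.8 ± 5.32 to 108.8 ± 3.95 CPM (0.68, SE 0.075, edgeR adjusted p = 4.32e-05), where the coactivator NCOA3 also rose (0.67, SE 0.062, edgeR adjusted p = 1.27e-05).

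Of 22 other glucocorticoid-induced genes tested, FDI6 called 8 higher and 2 lower, with a median log2 fold change of 0.34 (all genes −0.01). Over all genes FDI6 called 8% higher and 5.77% lower. TNFAIP3, an inhibitor of NF-κB, rose from 4.25 ± 0.928 to 20.7 ± 1.59 CPM (2.30, SE 0.151, edgeR adjusted p = 9.61e-07). BIRC3, an NF-κB-induced inhibitor of apoptosis, rose from 27.6 ± 1.88 to 123.7 ± 17.4 CPM (2.19, edgeR adjusted p = 9.06e-08) and the metallothionein MT2A from 293.6 ± 18.6 to 838.4 ± 94.2 CPM (1.53, edgeR adjusted p = 1.71e-07). CEBPD, a C/EBP transcription factor, fell from 75.8 ± 3.52 to 38.2 ± 5.91 CPM (−0.96, edgeR adjusted p = 4.85e-05). All 4 are also known to respond to signals other than glucocorticoids.

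In siBoth 2 genes of this list were called lower and 1 higher, where 3.64% and 2.8% of all genes were. ERRFI1, a feedback inhibitor of EGFR, fell from 241.5 ± 25.4 to 127.8 ± 12.5 CPM (−0.89, SE 0.109, edgeR adjusted p = 0.00253). The clock gene PER2 fell from 32.3 ± 7.29 to 20.2 ± 1.91 CPM (−0.65, SE 0.168, edgeR adjusted p = 0.0408) and the transcription factor TFCP2L1 rose from 10.9 ± 1.76 to 17.8 ± 1.82 CPM (0.74, SE 0.149, edgeR adjusted p = 0.0182). In siMYBL2 edgeR called 0 of 22 (6 at an unadjusted p under 0.05, 1 call by DESeq2).

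Among the cytokine and inflammatory genes that glucocorticoids repress, several chemokine genes were higher after FDI-6. Of the 16 genes in this list 11 passed the low-count filter in that experiment. MMP1, at 0 in every control_FDI6 library, and ICAM1, at 0.454 CPM there, were higher in FDI6 (4.93 and 3.09 CPM), so no count or median over the list is given as a result. CXCL8, which encodes interleukin-8, rose from 2.21 ± 0.458 to 56.9 ± 6.86 CPM (4.71, SE 0.15, edgeR adjusted p = 1.04e-08, n = 3 each). On the log2 scale the neutrophil chemokines CXCL1 and CXCL2 rose by 2.94 and 2.80 (edgeR adjusted p = 2.68e-08 and 1.24e-07), and the monocyte chemokine CCL2 rose by 2.46 (edgeR adjusted p = 9.06e-08). In siBoth, 2 of 16 were called higher, where 2.8% of all genes were. ICAM1, an adhesion receptor for leukocytes, rose from 38.4 ± 8.46 to 84.4 ± 23.8 CPM (1.16, SE 0.227, edgeR adjusted p = 0.0163) and the cytokine IL11 from 150.0 ± 9.30 to 276.3 ± 37.9 CPM (0.91, SE 0.115, edgeR adjusted p = 0.00284).

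KLF9 and PER1 were not called, whereas relatives of both were. In siMYBL2 and in siBoth, 3 of 11 KLF genes tested were called lower, where 3.52% and 3.64% of all genes were. These were KLF2, KLF6 and KLF16 in each. Their log2 fold changes were −1.33, −0.66 and −0.85 in siMYBL2 (edgeR adjusted p = 0.0181, 0.0321 and 0.00341) and −1.23, −0.69 and −0.82 in siBoth (edgeR adjusted p = 0.0228, 0.00511 and 0.0161). In FDI6, 7 of 11 were called higher, where 8% of all genes were. KLF6 rose from 39.8 ± 2.001 to 98.6 ± 5.602 CPM (1.33, SE 0.079, edgeR adjusted p = 4.73e-07), and KLF12, KLF11 and KLF2 rose by 1.06, 1.04 and 0.99 (edgeR adjusted p = 0.000139, 7.9e-05 and 0.003).

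Of 19 clock genes tested in siMYBL2, NPAS2, a partner of BMAL1, and PER3 were called lower and CRY2 higher. Over all genes 3.52% were called lower and 4.38% higher in siMYBL2, and 3.64% and 2.8% in siBoth. NPAS2 fell from 85.6 ± 8.73 to 39.4 ± 6.14 CPM (−1.10, SE 0.112, edgeR adjusted p = 0.000462, n = 4 each). In siBoth NPAS2 fell by 0.80 on the log2 scale and PER3 by 1.19 (edgeR adjusted p = 0.00491 and 0.0433), PER2 fell as given above, and BHLHE41 and CRY2 were called higher. In FDI6, BHLHE41 and CIART were near 0 in the controls (0.335 and 0.369 CPM) and higher in treated libraries (1.28 and 0.908 CPM). No count over the clock list is therefore given as a result for FDI6, where 8% of all genes were called higher and 5.77% lower. There the repressor NR1D2 rose from 27.8 ± 1.73 to 52.5 ± 6.33 CPM (0.94, edgeR adjusted p = 2.72e-05) and CLOCK and NPAS2 by 0.63 and 0.61 (edgeR adjusted p = 0.000303 and 0.000146). DBP, an output gene of the clock, fell from 9.30 ± 0.515 to 5.02 ± 0.811 CPM (−0.86, edgeR adjusted p = 0.00118). Among the 5 relatives of TSC22D3 and SGK1, TSC22D4 fell in siMYBL2 from 44.4 ± 4.34 to 23.1 ± 2.14 CPM (−0.93, SE 0.097, edgeR adjusted p = 0.000505), the only call in that list.

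Epithelial markers differed in both directions. The summed level of 6 epithelial markers was 4247 to 5015 CPM in FDI6 and 7576 to 8236 CPM in control_FDI6, and KRT8, KRT18 and CDH1 were called lower. In FDI6 EPCAM also passed as lower (log2 fold change −0.47) and KRT19 as higher (0.35), both under the fold threshold. CLDN4 was called higher in siMYBL2 (0.80, edgeR adjusted p = 0.00478) and in siBoth (0.99, edgeR adjusted p = 0.0486). The sum over 8 markers of blood, endothelial and fibroblast cells was 5.83 to 10.3 CPM in FDI6 and 18.1 to 20.8 CPM in control_FDI6, mostly from COL1A1. CD3E was at 0 in all libraries. The part of these shifts in the FDI6 results was not tested.

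**Figure D3:**
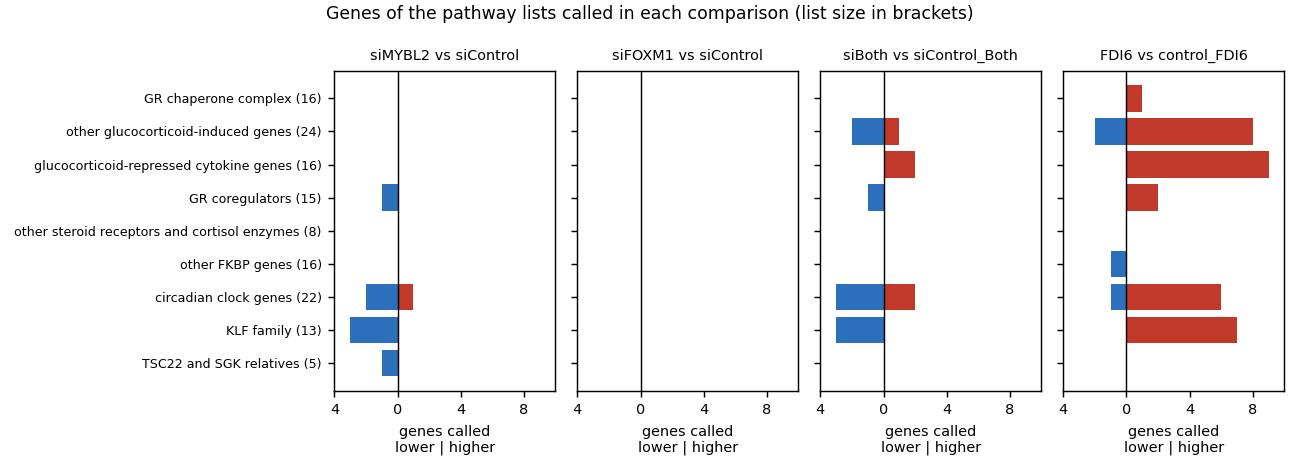
Number of genes of each pathway list called lower (left of 0, blue) or higher (right of 0, red) in the 4 comparisons, with list sizes in brackets. FDI6 calls 8 glucocorticoid-induced genes and 7 KLF genes higher, where 8% of all genes were called higher. The cytokine and clock bars for FDI6 include genes that were near 0 in its controls. siFOXM1 calls 0 in each list, where 0.591% of all genes were called lower and 0.0755% higher.

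The genes whose pattern was most like FKBP5 were found by the correlation of log2 CPM, less the mean of the own controls, over the 24 libraries and 11369 genes. They were THOC7 (r = 0.961), EIF3L (0.946), CEMIP2 (0.932), CAPZA2 (0.929) and DCTN6 (0.925). The libraries of a group share their treatment and control mean, so the values describe likeness only. THOC7, a subunit of the mRNA export complex THO, had log2 fold changes of −2.15 in siFOXM1, −1.73 in siBoth, 0.04 in siMYBL2 and −0.14 in FDI6. The translation initiation subunit EIF3L changed by −0.61, −0.56, 0.01 and 0.04 in the same order, and CEMIP2 by −0.73, −0.52, 0.36 and −0.10. CAPZA2, an actin capping subunit, changed by −0.58, −0.46, −0.01 and 0.00, and the dynactin subunit DCTN6 by −0.81, −0.51, 0.07 and 0.08. None of the other 6 genes followed FKBP5 closely, with r from −0.12 for FKBP4 to 0.48 for NR3C1.

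The ranking by likeness to FKBP5 draws on the siFOXM1 libraries, from which the word GTGTTTA also came. Its presence in the genes so ranked is therefore a description only. The 3′ UTRs of these 5 genes all contain it. Their sites are shown for comparison with that of FKBP5, for THOC7 (chr3:63834059-63834087, minus strand), EIF3L (chr22:37888715-37888743, plus strand), CEMIP2 (chr9:71684420-71684448, minus strand) and CAPZA2 (chr7:116918382-116918410, plus strand), and DCTN6 is named only:
THOC7 site: atgaccataatGTGTTTAaaatgtggtat
EIF3L site: atcagttgttaGTGTTTAaattgagttat
CEMIP2 site: actgtatatttGTGTTTAaaatgcagagc
CAPZA2 site: ctatatcaattGTGTTTAaacctttcaag
In these sites, and in those of FKBP5 and KLF9 above, the word is followed by an A, giving the 8-base word GTGTTTAA. Among genes with a 3′ UTR tested in siFOXM1, 2308 held GTGTTTA and 807 held GTGTTTAA.

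Of 13147 genes with a 3′ UTR tested in siFOXM1, 2308 (17.6%) held GTGTTTA. In siFOXM1, 2.6% of the genes with the word were called lower, against 0.295% of those without it. The medians of log2 fold change were −0.07 and 0.01. Of the 807 genes with GTGTTTAA, 4.83% were called lower, with a median of −0.14. In siBoth, 8.83% of genes with GTGTTTA were called lower against 3.12% without it, in siMYBL2 4.46% against 3.59%, and in FDI6 3.02% against 6.19%. Genes with the word were higher in FDI6 by the median (0.20 against −0.05), unlike FKBP5 at −0.13. SGK1, FKBP4, NR3C1, TSC22D3 and PER1 hold no GTGTTTA in their canonical 3′ UTRs. The words CCTTACA and ACGCCCA, which that earlier analysis tied to other siRNAs of the study, occur in none of the 7. Genes with them were also higher in FDI6 by the median, at 0.195 against −0.019 and 0.06 against −0.003. In siBoth 13.3% and 7.53% of them were called lower, against 3.25% and 3.95% without these words. Shifts in FDI6 and siBoth were thus also seen with these words. In siFOXM1, 0.528% of genes with CCTTACA and 1.15% of genes with ACGCCCA were called lower, against 0.716% and 0.678% without them. In siMYBL2 these shares were 10.8% and 9.76%, against 3.08% and 3.45%. Because GTGTTTA came from the siFOXM1 libraries, its share there is a description, and its part in the FKBP5 values was not tested.

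**Figure D4:**
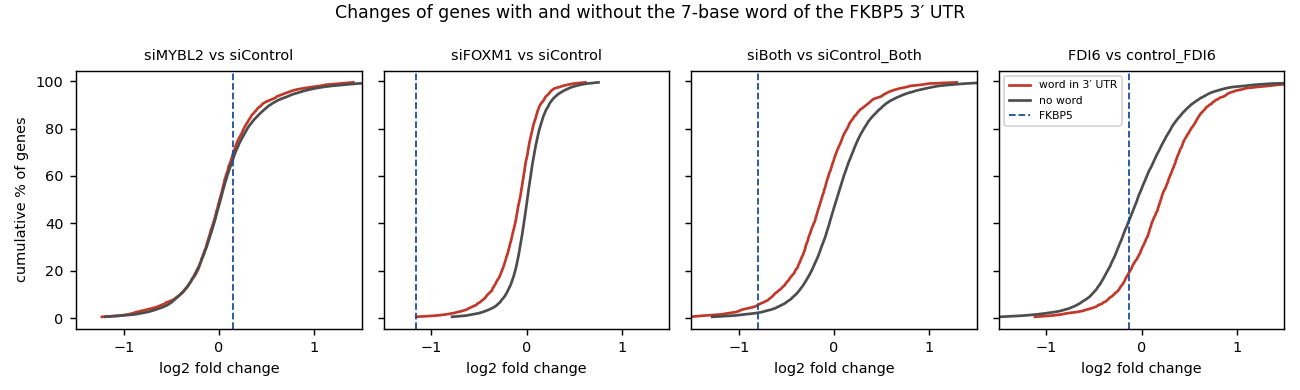
Cumulative share of genes (percent) by log2 fold change in the 4 comparisons, for genes with (red) and without (grey) the 7-base word in the 3′ UTR; the dashed line is FKBP5. The red curve lies to the left in siFOXM1 and siBoth and to the right in FDI6, and FKBP5 stands at −1.16 and −0.79 in the first pair.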

How the data were processed

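PolyA-captured RNA of 24 A549 samples was sequenced as read pairs. The authors trimmed reads with Trim Galore, aligned them with STAR to hg38 and deposited counts of read pairs per gene from HTSeq on GENCODE V29. Strand setting and further versions are not given in the sources used here. Rows of pairs not assigned to a gene stayed out of library sizes (ambiguous pairs were 7.88 to 11.2% of each file). Of 58721 identifiers, 58207 matched a symbol.

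Groups came from the labels, which call the samples replicates, and the methods name them biological. Each treatment was compared with its own control by the quasi-likelihood test of edgeR 4.0.16 (R 4.3.3) with TMM scaling, filterByExpr and Benjamini-Hochberg adjustment over all genes tested. Differences between effects were interaction contrasts. Each SE was derived from the test, as the absolute log2 fold change divided by the square root of the quasi-likelihood F. Levels are CPM scaled by TMM over all 24 libraries. The script was tested on simulated counts. Replicate numbers paired the siRNA samples: libraries of like number strayed from their group averages together, with correlations of 0.537 to 0.905, against −0.286 to 0.159 in the FDI-6 experiment, over genes with at least 50 counts. Fits were repeated with upper-quartile or RLE scaling, without the filter or with at least 10 counts in every library, over all 24 libraries, with the replicate block, without single libraries, and by DESeq2 1.42.0.

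The 7 genes, the lists and the words were chosen with earlier results of these data known. Named list genes were those called with a mean of at least 50 counts, up to 4 per list and comparison by size of change; CRY2 in siBoth was named after its value was seen. The 5 most similar genes had a mean of at least 100 counts. 3′ UTRs were those of GENCODE V44 canonical transcripts and promoters those of RefSeq. Protein sequences were not used here.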

Additional observations from a re-analysis of the deposited data

Results flagged for a closer look

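Differences between the effects of 2 treatments, each against its own controls, passed the edgeR interaction test for 4 of the 7 genes in FDI6 against siBoth and for FKBP5 in siBoth against siMYBL2. Over all genes 18.2% passed as higher in FDI6 against siBoth, and 0.176% as lower in siBoth against siMYBL2. The FDI6 effect was above the siBoth effect by log2 differences of 0.66 for FKBP5 (edgeR adjusted p = 0.00412), 0.35 for NR3C1 (edgeR adjusted p = 0.017), 0.80 for TSC22D3 (edgeR adjusted p = 0.0264) and 0.85 for SGK1 (edgeR adjusted p = 0.0148). The siBoth effect on FKBP5 was below the siMYBL2 effect by −0.94 (edgeR adjusted p = 0.0459). That fit includes the siControl libraries by which FKBP5 was chosen. Each of these differences spans separate experiments, so treatment and experiment cannot be told apart. In all 3 FDI6 libraries FKBP5 and FKBP4 were below, and NR3C1, TSC22D3 and SGK1 were above, every control_FDI6 library. For FKBP5 the closest of these libraries were at 45.54 and 45.64 CPM. FKBP5 and FKBP4 were below every control in all 3 siBoth libraries. The share of all genes without overlap was not counted, so these statements describe the libraries and are not a result about the 7 genes. In FDI6 7270 of 15240 genes had an unadjusted edgeR p under 0.05.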

How the results depend on the processing

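Of 688 recomputed values, 613 kept their direction and their side of the threshold or stayed within the spread between replicates. The FKBP5 changes in the 4 comparisons and in FDI6 against siBoth were among them. Its siBoth-minus-siMYBL2 difference lost the threshold under upper-quartile scaling (−0.92, edgeR adjusted p = 0.0623) and in 11 of 14 fits without a library, with values from −1.02 to −0.82; that comparison called 27 genes, 271 with the replicate block (219 lower) and 7 to 28 without 1 library. Numbers of genes called moved by over 1.5 times with the replicate block, to 1991 in siMYBL2 (1269 without it), 401 in siFOXM1 (106 without it; 234 lower and 167 higher) and 1849 in siBoth (1019 without it), with DESeq2 in siFOXM1 (163) and without a filter in siBoth (1545). Leaving out 1 library gave 56 to 115 calls in siFOXM1 and 587 to 1097 in siBoth. Leaving replicate 4 out of both groups, chosen after seeing the data, gave 1305 calls in siMYBL2 and 111 in siFOXM1. Signs turned only for changes close to 0 that passed no test. These were TSC22D3 in siMYBL2 (0.0369 with upper-quartile scaling, 0.0028 with the replicate block, 0.0547 without replicate 4 in both groups, −0.1715 to 0.084 without 1 library), PER1 in siMYBL2 with upper-quartile scaling (0.0142), and FKBP4 in FDI6 against siBoth with the same scaling (−0.0288). In FDI6, leaving out 1 library gave −0.1445 to 0.0021 for PER1 and −0.1353 to 0.0815 for KLF9, and in siFOXM1 −0.0786 to 0.0546 for FKBP4 and −0.0474 to 0.2355 for TSC22D3. In the fit of 24 libraries the FDI6 changes of FKBP4 (−0.24) and TSC22D3 (0.49) had edgeR adjusted p = 0.064 and 0.108, and the siBoth change of SGK1 passed (edgeR adjusted p = 0.0335). The replicate block changed no call of the 7 genes beyond those given with the results. Calls in the lists were recomputed with DESeq2 only. The cause of these shifts was not tested. KLF9, with 69 to 101 counts per library in the FDI-6 experiment, and the groups of 3 limit what could be detected there.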
